A study of Mus musculus with 6 samples.

Results

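The transcription factor genes that set enterocyte identity and position along the gut were followed in RNA sequencing of intestinal crypts. These 10 genes were taken from the table of expression values: Hnf4a, Hnf4g, Cdx1, Cdx2, Gata4, Gata6, Klf5, Elf3, Maf and Prdm1. All 10 were present among the 24736 gene symbols and all 10 passed the filter on low values, which kept 12268 genes. The crypts came from 12-week-old male mice, 3 wild-type (WT) and 3 Mtg16-/-, with 1 library per mouse and no treatment. They were isolated over the full length of the gut by 30 min in cold PBS with 2 mM EDTA. The labels name no other allele in either genotype and no tissue-specific driver for the loss of Mtg16. The labels call it CRISPR-induced while the study describes mice received as a gift, and this was not resolved.

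The intestinal epithelium is renewed from stem cells at the crypt base, and most of its cells leave the crypt as absorptive enterocytes. HNF4A and its paralog HNF4G are nuclear receptors that bind the regulatory regions of brush border and lipid transport genes and hold enterocyte identity. CDX1 and CDX2 are homeobox factors that keep the epithelium intestinal rather than gastric. GATA4 marks the duodenum and jejunum and represses ileal genes, while GATA6 spans the whole length of the gut. KLF5 acts mainly in dividing crypt cells, ELF3 is an epithelial ETS factor, MAF belongs to the villus enterocyte, and PRDM1, also known as BLIMP1, holds the enterocyte in its suckling state before weaning. MTG16, a co-repressor encoded by Cbfa2t3, was the targeted gene.

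Expression is given as TPM, the authors' RSEM estimate of transcript abundance scaled to one fixed total per library, which corrects for transcript length and can therefore be compared between genes as well as between libraries. No read numbers can be taken from TPM, and the depth of these libraries is unknown. Differences are on the log2(TPM + 1) scale as Mtg16-/- minus WT, which understates the change of low genes. They were tested with limma on every gene with a mean of at least 1 TPM, and a gene was called at a Benjamini-Hochberg adjusted p under 0.1. For single values a two-sided exact permutation test was used beside it, and 3 mice against 3 cannot reach less than p = 0.1. Mice of one genotype are separate animals, so the spread includes that between animals.

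The targeted gene did not separate the groups. Cbfa2t3 had 3.67, 6.69 and 4.52 TPM in WT and 4.62, 6.43 and 3.23 TPM in the libraries labelled Mtg16-/-. The values overlapped, with a log2 difference of -0.06 (SE 0.27, limma adjusted p = 0.937). A value for the whole gene cannot show a missing exon, so each direction given below rests on the labels. WT replicate 1 stood at one end of the first principal component, which held 47.7% of the variance, and Mtg16-/- replicate 3 at the other, and values without WT replicate 1 are given beside each of the 10 genes and each list median. The 9 epithelial markers had overlapping sums in the groups, at 12099 to 13618 TPM in WT and 11801 to 13341 TPM in Mtg16-/-. Although the label names the full length of the gut, the defining genes of the large intestine were at or near 0. Hoxb13 was listed at 0 in all 6 libraries, Aqp8 reached at most 0.15 TPM, Hoxd13 at most 0.06 TPM, and Car1 was listed at 0 in 4 of 6.

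The start regions of Hnf4a and Cdx2 are shown because Hnf4a gives transcripts from 2 alternative promoters, which the TPM of the gene adds together, and because Cdx2 had the highest log2 difference of the 10 genes. Promoter windows from RefSeq (GRCm38.p6), 250 bases before and 50 after the first transcribed base, were matched for 4 of the 10 genes, namely Hnf4a with 2 windows, Cdx2, Elf3 and Prdm1. Each is written 5′ to 3′ on the strand of its gene. Capitals mark matches, on either strand, to GATAA, the core bound by GATA factors, ATTAAC, a half-site of HNF1 factors, ATAAA, a core of CDX sites, and CAGCTG, an E-box.
Hnf4a upstream promoter, chr2:163506607-163506906, plus strand: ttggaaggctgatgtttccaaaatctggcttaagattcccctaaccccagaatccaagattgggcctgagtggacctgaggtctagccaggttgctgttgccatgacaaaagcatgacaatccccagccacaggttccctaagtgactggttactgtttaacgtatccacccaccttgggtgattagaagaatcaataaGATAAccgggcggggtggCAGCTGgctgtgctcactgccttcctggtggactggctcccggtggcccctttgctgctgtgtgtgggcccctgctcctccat
Hnf4a downstream promoter, chr2:163546905-163547204, plus strand: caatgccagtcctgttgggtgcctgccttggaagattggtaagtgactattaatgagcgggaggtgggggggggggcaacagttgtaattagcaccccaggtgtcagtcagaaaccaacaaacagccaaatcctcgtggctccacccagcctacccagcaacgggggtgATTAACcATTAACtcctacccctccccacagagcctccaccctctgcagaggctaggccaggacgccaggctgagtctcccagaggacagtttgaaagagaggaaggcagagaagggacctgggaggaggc
Cdx2 promoter, chr5:147307200-147307499, minus strand: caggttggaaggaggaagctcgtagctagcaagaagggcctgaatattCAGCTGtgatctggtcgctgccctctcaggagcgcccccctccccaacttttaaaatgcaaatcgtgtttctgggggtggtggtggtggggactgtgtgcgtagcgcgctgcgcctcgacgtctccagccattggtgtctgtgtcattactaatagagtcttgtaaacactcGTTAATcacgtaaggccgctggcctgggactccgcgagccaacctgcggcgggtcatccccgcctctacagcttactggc

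The 2 Hnf4a starts lay 40298 bases apart and held different matches. The upstream window, of the promoter known as P2, had GATAA from 51 to 47 bases before the start and CAGCTG from 33 to 28 bases before it. The downstream window, of the promoter known as P1, had ATTAAC at 2 places, from 81 to 76 and from 74 to 69 bases before the start. In the Cdx2 window ATTAAC lay on the opposite strand from 30 to 25 bases before the start, where the printed strand reads GTTAAT, and CAGCTG lay from 202 to 197 bases before it. None of the 3 windows held ATAAA. Of 32851 RefSeq promoter windows of this length, 25.4% held GATAA, 7.1% ATTAAC, 40.0% ATAAA and 16.3% CAGCTG, and a match describes the letters alone.

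None of the 10 genes was called. Limma called 0 of 10 against 4 of all 12268 tested genes, which is 0.0326%. At an unadjusted p under 0.05 there were 2 of 10, Cdx2 and Gata4, against a background of 14.6% of all tested genes. Adjusted p-values of the 10 genes ran from 0.263 to 0.920. In 3 of 10 the groups did not overlap, against 21.0% of all tested genes. Cdx2 and Klf5 were higher in every Mtg16-/- library than in any WT library, a pattern found in 9.94% of all tested genes, and Gata4 was lower in every one, found in 11.1%. The median log2 difference of the 10 genes was -0.08 and that of all tested genes -0.03, and the median size without sign was 0.22 and 0.19.

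**Figure D1:**
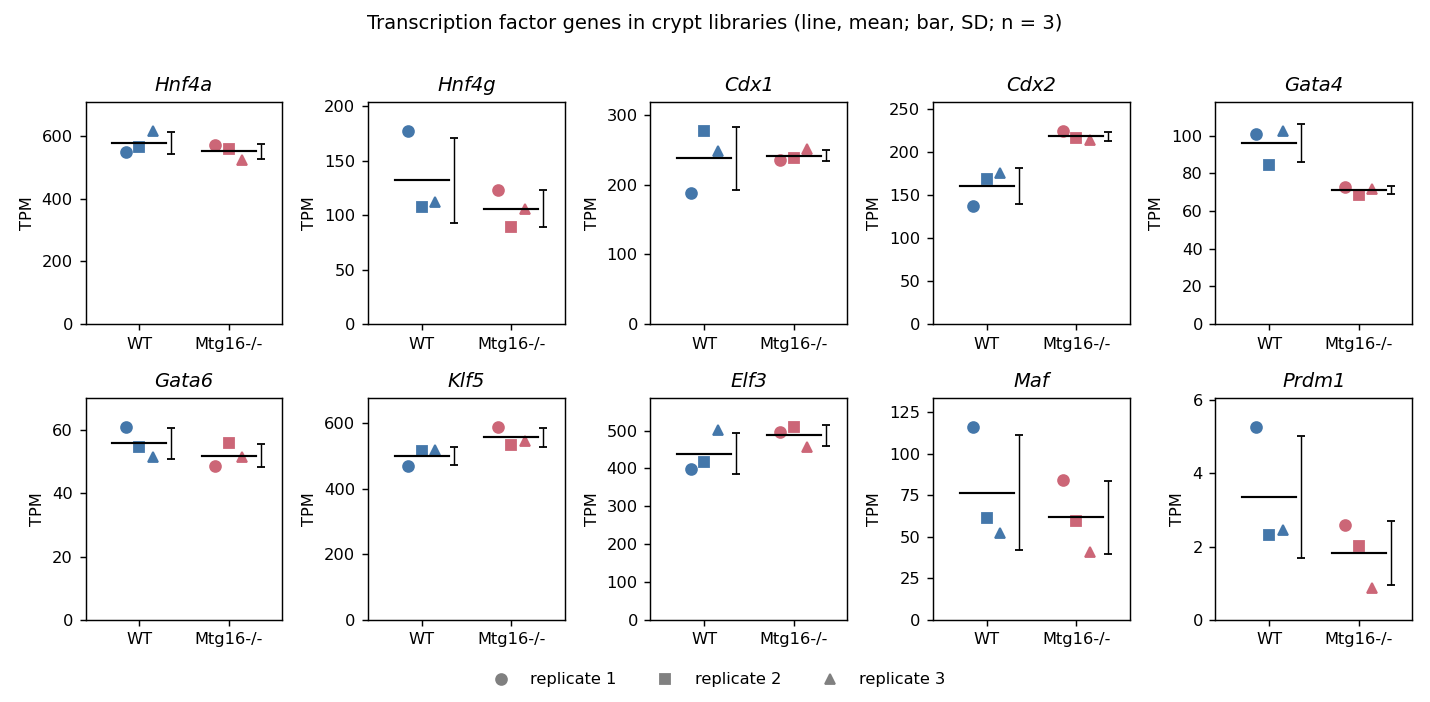
Expression of the 10 transcription factor genes in TPM on a linear axis from 0, by genotype. Points are single mice with the shape giving the replicate number, the black line is the mean and the bar the SD (n = 3). The Cdx2, Gata4 and Klf5 points of the groups do not overlap, and WT replicate 1 is the highest point for Hnf4g, Gata6, Maf and Prdm1.

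Neither HNF4 receptor gene separated the genotypes, and they differed in level and in spread. Hnf4a, on chromosome 2 from 163506811 to 163572907 in GRCm38, had 548, 566 and 615 TPM in WT and 571, 558 and 523 TPM in Mtg16-/-. The libraries were close together and the groups overlapped, with means of 576 ± 34.9 (SD, n = 3) and 551 ± 24.8 TPM (SD, n = 3). The log2 difference was -0.07 (SE 0.13), with a 95% interval that reached from 0.777 to 1.18 as a fold (limma adjusted p = 0.834, exact permutation p = 0.5), and it was -0.10 without WT replicate 1. Its residual SD was lower than that of all but 3.86% of tested genes. The interval rests on the SE from limma, which also draws on the spread of other genes. Hnf4g, on chromosome 3 from 3508030 to 3659800, had 177, 107 and 112 TPM in WT and 123, 89.0 and 106 TPM in Mtg16-/-. WT replicate 1 was far above the other 5 libraries, which overlapped, and the log2 difference was -0.29 (SE 0.22, limma adjusted p = 0.536). Without WT replicate 1 it was -0.06.

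The CDX homeobox genes differed from each other. Cdx2, on chromosome 5 from 147300900 to 147307249, had 137, 168 and 176 TPM in WT and 224, 216 and 214 TPM in Mtg16-/-. Every Mtg16-/- library was higher than every WT library, with 37.7 TPM between the nearest values, and the Mtg16-/- libraries were the closer together. Its mean was 160 ± 20.6 TPM in WT (SD, n = 3) and 218 ± 5.51 TPM in Mtg16-/- (SD, n = 3), which is 35.7% above. The log2 difference of 0.45 (SE 0.13, 95% interval 0.14 to 0.75) did not pass the adjusted threshold (limma unadjusted p = 0.0101, adjusted p = 0.265, exact permutation p = 0.1, the smallest possible). Without WT replicate 1, the lowest library, it was 0.34. Cdx1, on chromosome 18 from 61018862 to 61036199, had 188, 277 and 248 TPM in WT and 235, 239 and 251.1 TPM in Mtg16-/-. Here the WT mice spanned all of the Mtg16-/- values, and the log2 difference of 0.04 (SE 0.16, limma adjusted p = 0.920) turned to -0.12 without WT replicate 1.

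The GATA zinc finger genes were lower in level than the CDX genes. Gata4, on chromosome 14 from 63198914 to 63271712, had 101, 84.3 and 102 TPM in WT and 72.8, 68.7 and 71.6 TPM in Mtg16-/-. All Mtg16-/- libraries were below all WT libraries, 11.45 TPM apart at the nearest, and lay within a narrow range. The mean was 95.9 ± 10.1 TPM in WT (SD, n = 3) and 71.0 ± 2.15 TPM in Mtg16-/- (SD, n = 3), with a log2 difference of -0.42 (SE 0.12, 95% interval -0.70 to -0.14). Like that of Cdx2 it did not pass the adjusted threshold (limma unadjusted p = 0.00859, adjusted p = 0.263, exact permutation p = 0.1), and it was -0.38 without WT replicate 1. When limma weighted the libraries by their quality, both genes passed, Cdx2 at an adjusted p of 0.0965 with a log2 difference of 0.35 and Gata4 at 0.0691 with -0.47. That setting called 855 of all 12268 tested genes, against 4 in the fit without weights. Gata6, on chromosome 18 from 11052510 to 11085636, had 61.1, 54.7 and 51.7 TPM in WT and 48.5, 56.0 and 51.5 TPM in Mtg16-/-. Its groups overlapped, and the log2 difference was -0.10 (SE 0.12, 95% interval -0.38 to 0.18, limma adjusted p = 0.712), or -0.035 without WT replicate 1, its highest library.

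Both epithelial factors, KLF5 of the dividing crypt and ELF3 of the ETS family, had high levels. Klf5, on chromosome 14 from 99298691 to 99313412, had 469, 514 and 519 TPM in WT and 589, 533 and 546 TPM in Mtg16-/-. Every Mtg16-/- library was above every WT library, but only 13.97 TPM lay between the nearest. The log2 difference was 0.15 (SE 0.13, 95% interval -0.15 to 0.45, limma adjusted p = 0.584, exact permutation p = 0.1), and the means were 501 ± 27.8 and 556 ± 29.3 TPM (SD, n = 3 each). Without WT replicate 1 it was 0.10. Elf3, on chromosome 1 from 135253574 to 135258472, had 399, 417 and 502 TPM in WT and 497, 510.3 and 457 TPM in Mtg16-/-. WT replicate 3 lay among the Mtg16-/- values, and the log2 difference was 0.16 (SE 0.14, 95% interval -0.17 to 0.49, limma adjusted p = 0.608), or 0.091 without WT replicate 1.

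The 2 genes of the differentiated or suckling enterocyte varied most between mice. Maf, on chromosome 8 from 115703253 to 115706894, had 116, 61.5 and 52.0 TPM in WT and 84.4, 59.5 and 40.9 TPM in Mtg16-/-. The spread within each genotype, 2.23-fold in WT and 2.06-fold in Mtg16-/-, was larger than the difference between the groups. The log2 difference was -0.28 (SE 0.34, 95% interval -1.07 to 0.51, limma adjusted p = 0.713), and it was 0.06 without WT replicate 1. Prdm1, on chromosome 10 from 44437174 to 44528558, was the lowest of the 10 genes, with 5.27, 2.32 and 2.46 TPM in WT and 2.59, 2.02 and 0.86 TPM in Mtg16-/-. The groups overlapped and WT replicate 1 was again the highest. Its log2 difference was -0.61 (SE 0.34, 95% interval -1.40 to 0.17, limma adjusted p = 0.426), and -0.32 without that library. Maf and Prdm1 are also made by lymphocytes, and the summed TPM of 12 T cell markers was 694, 196 and 402 in WT and 356, 259 and 111 in Mtg16-/-. Like both genes, that sum was highest in WT replicate 1 and lowest in Mtg16-/- replicate 3. The order is not particular to T cells. The summed TPM of 14 enterocyte markers was also highest in WT replicate 1, at 40994, and lowest in Mtg16-/- replicate 3, at 7084. All 12 T cell markers had a log2 difference below 0 with a median of -0.70 (-0.32 without WT replicate 1 and -0.27 without Mtg16-/- replicate 3), none was called, none had groups without overlap, and their part in the values of Maf and Prdm1 was not tested.

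**Figure D2:**
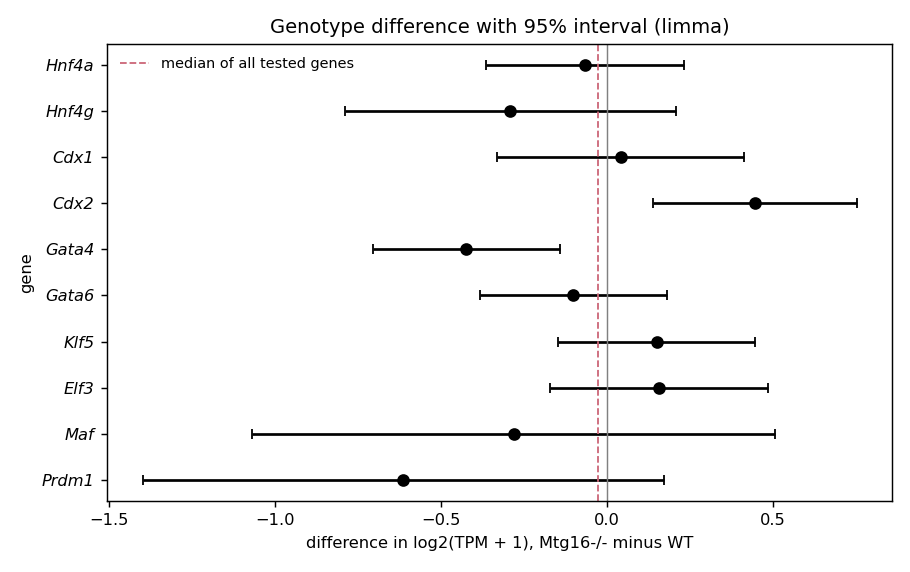
Log2 difference between Mtg16-/- and WT for each gene, on the log2(TPM + 1) scale, with the 95% interval from limma (n = 3 mice per group). The dashed line is the median of all 12268 tested genes, -0.03. The intervals of Cdx2, at 0.14 to 0.75, and of Gata4, at -0.70 to -0.14, do not reach 0, and those of Maf and Prdm1 are the widest.

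The order of the 10 genes by mean level was nearly the same in both genotypes. In WT it was Hnf4a, Klf5, Elf3, Cdx1, Cdx2, Hnf4g, Gata4, Maf, Gata6 and Prdm1. The ranges of neighbours overlapped for Klf5 and Elf3, for Cdx2 and Hnf4g, for Gata4 and Maf, and for Maf and Gata6, so these neighbours are not told apart by their spread. In Mtg16-/- Klf5 stood before Hnf4a, at a ratio of means of 1.01 with overlapping ranges, and the other 8 genes kept their order. There the ranges also overlapped for Gata4 and Maf and for Maf and Gata6. Cdx2 and Hnf4g, which overlapped in WT at a ratio of 1.21, were apart in Mtg16-/- at 2.05, with Cdx2 the higher in all 3 libraries. Gata6 was 16.7 times the level of Prdm1 in WT and 28.5 times in Mtg16-/-.

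Because each family holds paralogs, their balance was measured within each library, where a scaling of the whole library largely cancels. Hnf4a minus Hnf4g, in log2(TPM + 1), was 1.62, 2.39 and 2.44 in WT and 2.20, 2.63 and 2.30 in Mtg16-/-. These values overlapped, with a difference of 0.23 (exact permutation p = 0.6, adjusted over the 3 pairs 0.6) that became -0.04 without WT replicate 1. Cdx2 minus Cdx1 was -0.45, -0.71 and -0.50 in WT and -0.07, -0.15 and -0.23 in Mtg16-/-. Cdx2 thus stayed below its paralog in all 6 libraries but came closer to it in each Mtg16-/- library, by 0.40 on average (exact permutation p = 0.1, adjusted 0.15). As a share of the summed TPM of both CDX genes, Cdx2 held 42.2%, 37.8% and 41.4% in WT and 48.8%, 47.5% and 46.0% in Mtg16-/-. Gata6 minus Gata4 was -0.72, -0.61 and -0.97 in WT and -0.58, -0.29 and -0.47 in Mtg16-/-. Here too the groups did not overlap, by a small margin, with a difference of 0.32 (exact permutation p = 0.1, adjusted 0.15). Gata6 held 37.7%, 39.4% and 33.5% of the summed GATA level in WT and 40.0%, 44.9% and 41.8% in Mtg16-/-.

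**Figure D3:**
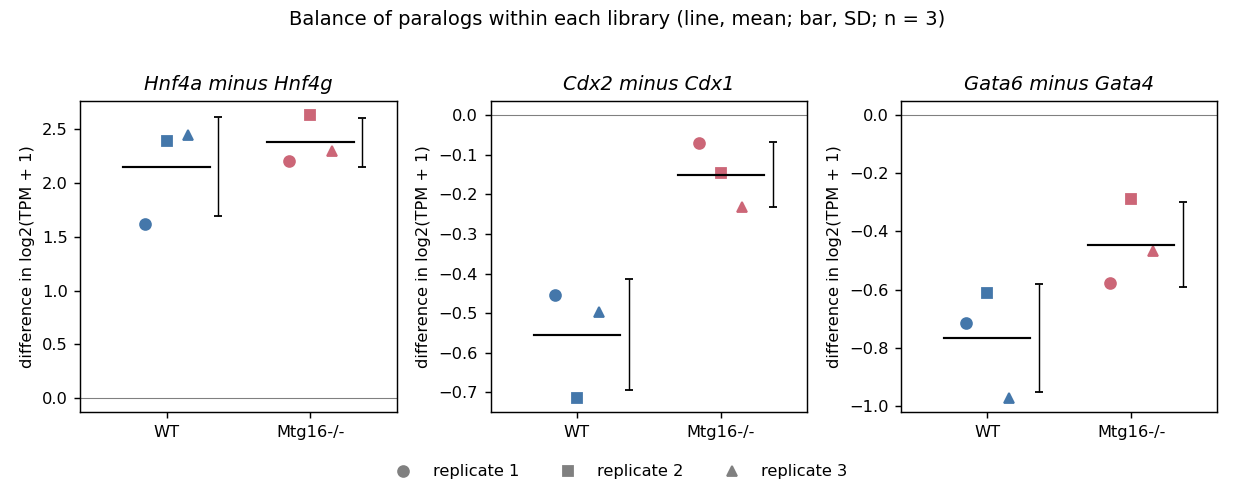
Difference between paralogs in log2(TPM + 1) within each library for the HNF4, CDX and GATA pairs. Points are mice, the line is the mean and the bar the SD (n = 3), each panel has its own axis, and the grey line marks 0, where the pair would be equal. Cdx2 minus Cdx1 lies between -0.71 and -0.45 in WT and between -0.23 and -0.07 in Mtg16-/-.

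Cdx2 and Gata4 lay on opposite sides of 0. The ratio of their TPM, chosen after the values were seen and given as a description, was 1.36, 2.00 and 1.72 in WT and 3.07, 3.14 and 2.98 in Mtg16-/-. The 3 Mtg16-/- ratios lay close together. They had to lie above all WT ratios, since every Mtg16-/- library was higher in Cdx2 and lower in Gata4. This separation is therefore no further result.

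For each gene, the 2 tested genes with the most similar profile over the 6 libraries were found by the root mean square difference of centred log2(TPM + 1) values. Cdx2 was nearest to Fn3krp and Osgep, a gene for a tRNA-modifying enzyme, at 0.0473 and 0.0490. Fn3krp had at most 9.35 TPM in WT and 11.82, 11.01 and 11.52 TPM in Mtg16-/-, high in the same 3 libraries as Cdx2. Gata4 was nearest to 2310061I04Rik and to Atp6ap1, for an accessory subunit of the vacuolar proton pump, at 0.0405 and 0.0422. Atp6ap1 had 72.2, 60.7 and 67.9 TPM in WT and 52.6, 47.8 and 49.5 TPM in Mtg16-/-, low in the same 3 libraries as Gata4. Hnf4a was nearest to Gorasp1 and Gm5113, Hnf4g to Gltpd2 and Gng12, Cdx1 to Nme3 and Mfsd13a, Gata6 to Cnot4 and Nlk, Klf5 to Gle1 and Cyba, and Elf3 to Pcgf2 and Kctd10. Maf was nearest to Abcg5, which encodes part of a sterol exporter of the enterocyte, with 170.0, 80.0 and 75.9 TPM in WT and 110.2, 77.0 and 60.2 TPM in Mtg16-/-, and then to Dennd1c. Prdm1 was nearest to Gmip and to Cst7, a cystatin of leukocytes, which had 7.01, 3.33 and 3.39 TPM in WT and 3.52, 2.72 and 1.54 TPM in Mtg16-/-. Cst7 and Prdm1 were both highest in WT replicate 1. With 6 libraries, many genes have similar profiles, and no other relation is read from these.

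Other transcription factors and nuclear receptors of the epithelium were examined as a list of 30. None was called by limma, and 9 had an unadjusted p under 0.05, against 14.6% of all tested genes. Of the 30, 14 lay above 0 and 16 below. The median log2 difference was -0.09, or -0.032 without WT replicate 1 and 0.0087 without Mtg16-/- replicate 3. In 5 the groups did not overlap with Mtg16-/- higher (among them Foxa1, Nr5a2, Ppara and Pparg) and in 7 with Mtg16-/- lower (among them Pdx1, Onecut2, Creb3l3, Isx, Bcl6 and Esrra). These are 12 of 30 against 21.0% of all tested genes. Pdx1, the homeobox factor of the duodenum and pancreas, had 13.2, 7.32 and 16.8 TPM in WT and 5.43, 2.39 and 4.64 TPM in Mtg16-/-. Its WT values were spread but all above the highest Mtg16-/- value, with a log2 difference of -1.36 (SE 0.33, limma adjusted p = 0.241). Onecut2, a duodenal factor, had 19.7, 10.7 and 16.1 TPM in WT and 5.20, 10.3 and 6.35 TPM in Mtg16-/-. The nearest values almost touched, and the log2 difference was -1.004 (SE 0.28, limma adjusted p = 0.263). Gata4, Pdx1 and Onecut2 are all factors of the proximal small intestine and, seen side by side after their values were known, all 3 had lower values in each Mtg16-/- library. This pattern was found in 11.1% of all tested genes. The 3 were put together from the 10 genes and this list of 30, and a shift in region was not tested.

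Creb3l3, a factor of mature enterocytes that drives lipid and apolipoprotein genes, had 208, 76.8 and 105 TPM in WT and 75.5, 48.6 and 37.8 TPM in Mtg16-/-. It was highest in WT replicate 1 and the nearest values of the groups were close, with a log2 difference of -1.19 (SE 0.38, limma adjusted p = 0.279) that was -0.79 without that library. Foxa1, a forkhead factor of the gut endoderm, had 13.3, 16.0 and 13.6 TPM in WT and 19.6, 22.4 and 21.0 TPM in Mtg16-/-. All Mtg16-/- libraries were higher, with a log2 difference of 0.52 (SE 0.13, limma adjusted p = 0.247).

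**Figure D4:**
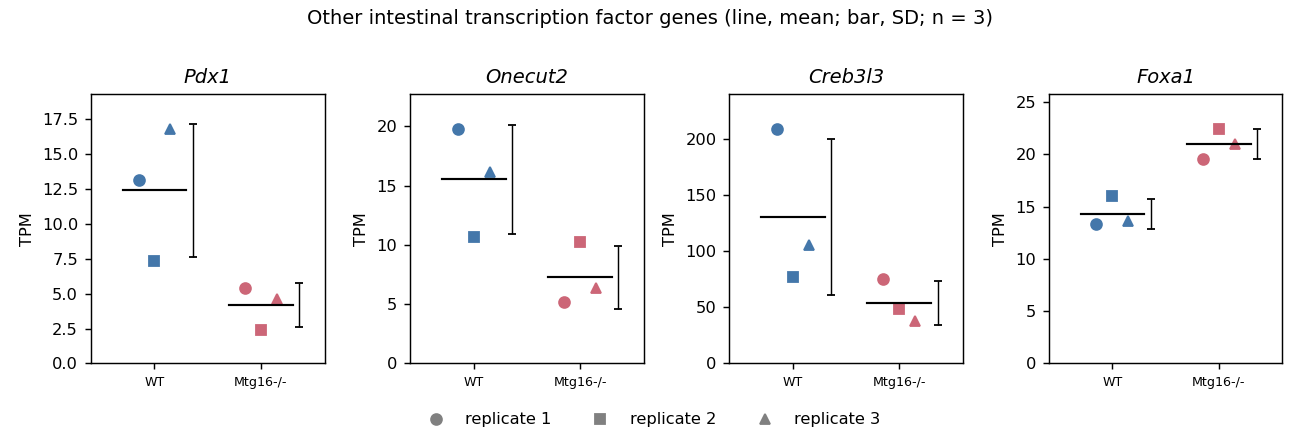
Expression in TPM, on linear axes from 0, of 4 other intestinal factors. Points are mice with the shape giving the replicate number, the line is the mean and the bar the SD (n = 3). Pdx1, Onecut2 and Creb3l3 are lower in each Mtg16-/- library than in any WT library, and Foxa1 is higher.

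The genes that depend on these factors were compared as lists, with none called by limma in any list. Of 24 genes known to need HNF4 factors, 22 lay below 0 and 2 above, while 46.4% of all tested genes lay above 0. At an unadjusted p under 0.05 there were 9, against 14.6% of all tested genes. The median log2 difference was -0.80 against -0.03 over all tested genes. Hnf4a itself was at -0.07 and Hnf4g at -0.29, or -0.10 and -0.06 without WT replicate 1. Fabp1, the liver-type fatty acid binding protein, had 5065, 1642 and 2061 TPM in WT and 996, 411 and 660.0 TPM in Mtg16-/-. Every Mtg16-/- value was below every WT value, and the log2 difference was -1.99 (SE 0.46, limma adjusted p = 0.225). Apoa4, an apolipoprotein of chylomicrons, had 5596, 1606 and 2212 TPM in WT and 1151, 599 and 608 TPM in Mtg16-/-, with a log2 difference of -1.85 (SE 0.47, limma adjusted p = 0.247). Its groups did not overlap either. Without WT replicate 1 the median of the list was -0.40, with 19 of 24 genes below 0, and over all libraries left out in turn it ran from -1.09 to -0.40.

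The 13 proximal genes that GATA factors hold up all lay below 0, with a median of -0.87. At an unadjusted p under 0.05 there were 6, against 14.6% of all tested genes. Fabp1 and Apoa4 are in this list too, so it is not a separate set of values from the HNF4 list. Lct, the lactase gene, had 557, 147 and 200 TPM in WT and 196, 84.3 and 73.0 TPM in Mtg16-/-. Its groups overlapped, with a log2 difference of -1.25 (SE 0.53, limma adjusted p = 0.333), or -0.68 without WT replicate 1. Without WT replicate 1 the median of the 13 genes was -0.50, with 11 below 0. Of the 9 ileal genes that GATA factors hold down, 8 were tested, 2 lay above 0 and 6 below. The median of -0.18 became 0.08 without WT replicate 1 and 0.11 without Mtg16-/- replicate 3. Nr0b2, the gene not tested, was under the filter on low values. It had 1.41, 1.93 and 1.49 TPM in WT and 0.25, 0.17 and 0.15 TPM in Mtg16-/-, without overlap. Fabp6, the ileal bile acid binding protein, had 1168, 1926 and 735 TPM in WT and 2056, 1880 and 869 TPM in Mtg16-/-. The lowest library of each genotype was replicate 3, the groups overlapped, and the log2 difference was 0.34 (SE 0.42, limma adjusted p = 0.720), running from -0.0017 without WT replicate 3 to 0.73 without Mtg16-/- replicate 3.

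Most targets of CDX factors lay on the other side of 0 from Cdx2. Of 19 tested, 14 lay below 0 and 5 above, 2 had an unadjusted p under 0.05 against 14.6% of all tested genes, and the median was -0.18. Of all tested genes 46.4% lay above 0. The 19 include Cdx1 and Hnf4a themselves, and Cdh17, Sis, Vil1 and Isx stand in the HNF4 list too. The median of the 19 was -0.12 without WT replicate 1, and it ran from -0.46 without WT replicate 3 to -0.067 without Mtg16-/- replicate 3. Cdh17, the intestinal cadherin, had 999, 592 and 638 TPM in WT and 613, 509 and 476 TPM in Mtg16-/-, which overlapped at a log2 difference of -0.45 (SE 0.22, limma adjusted p = 0.387), or -0.21 without WT replicate 1. Krt20, the keratin of differentiated cells, had 1747, 689 and 829 TPM in WT and 776, 454 and 315 TPM in Mtg16-/-, with a log2 difference of -1.05 (SE 0.42, limma adjusted p = 0.313), or -0.65 without WT replicate 1. Of the 16 genes of the large intestine 10 were tested, 5 on each side of 0, with a median of -0.01, which was -0.019 without WT replicate 1 and ran from -0.11 to 0.13 over the libraries left out. Mptx1, a pentraxin gene, had 3.29, 1.96 and 8.90 TPM in WT and 16.6, 12.8 and 24.8 TPM in Mtg16-/-. All Mtg16-/- libraries were higher, with a log2 difference of 1.88 (SE 0.43, limma adjusted p = 0.225).

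The list for MAF, 14 genes of the middle and upper villus, had 13 below 0 and 1 above, with a median of -0.99 that became -0.54 without WT replicate 1. Apoa4, Slc5a1 and Fabp2 of this list stand in the HNF4 list too. Enpp3, a nucleotide-cleaving enzyme, had 181, 49.2 and 90.7 TPM in WT and 50.2, 34.5 and 26.1 TPM in Mtg16-/-. The groups overlapped at WT replicate 2, with a log2 difference of -1.36 (SE 0.44, limma adjusted p = 0.279), or -0.89 without WT replicate 1. The 3 adult enzymes that PRDM1 holds down before weaning, Sis, Treh and Arg2, lay below 0. Their median of -0.65 was -0.37 without WT replicate 1 and -0.96 without WT replicate 2. Sis and Treh stand in the HNF4 list too, so they are not separate values. Treh, the trehalase gene, had 287, 96.7 and 116 TPM in WT and 88.5, 44.9 and 44.3 TPM in Mtg16-/-, without overlap (log2 difference -1.38, SE 0.43, limma adjusted p = 0.272, and -0.91 without WT replicate 1). Genes of the suckling enterocyte were mixed, with 4 above 0 and 6 below among 10 tested and a median of -0.14. That median changed sign to 0.022 without WT replicate 1, with 5 genes on each side of 0, and was 0.00063 without Mtg16-/- replicate 3 and -0.28 without WT replicate 2. Glb1, the lysosomal beta-galactosidase, lay above 0 at 0.31 and Fcgrt, the neonatal Fc receptor, below at -0.54, both without overlap and neither called (limma adjusted p = 0.314 and 0.284). The 11 cell cycle genes linked to KLF5 had 9 above 0 and a median of 0.18, which was 0.05 with 6 above 0 when WT replicate 1 was left out. Ccnd1, the gene of cyclin D1, had 71.8, 110 and 135 TPM in WT and 137, 202 and 146 TPM in Mtg16-/-, all higher in Mtg16-/-, with a log2 difference of 0.64 (SE 0.25, limma adjusted p = 0.312), or 0.39 without WT replicate 1.

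**Figure D5:**
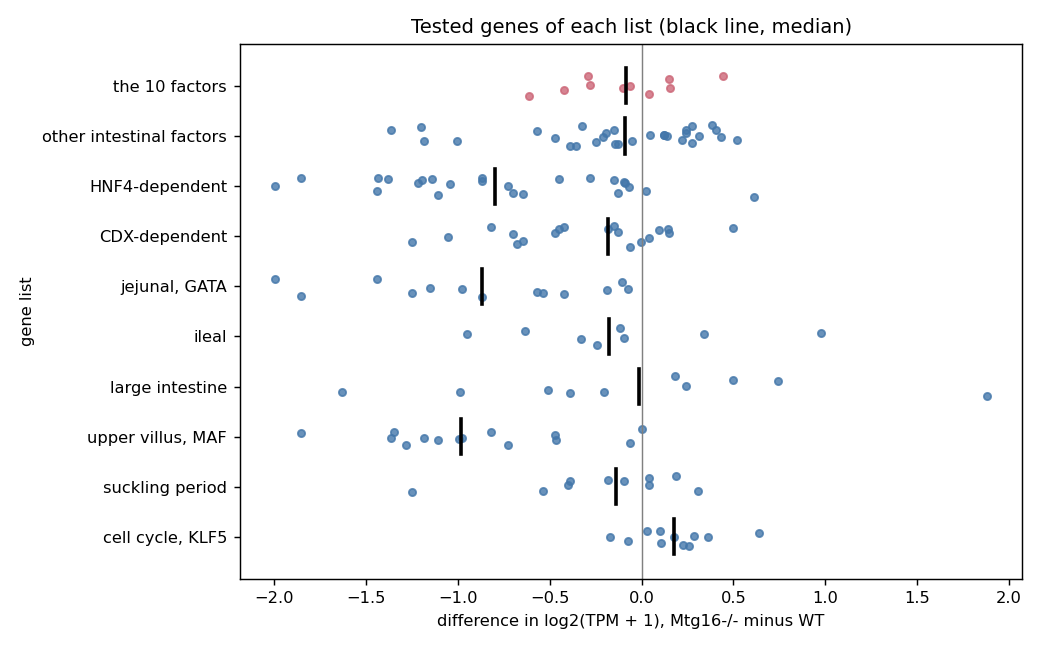
Log2 differences, Mtg16-/- minus WT on the log2(TPM + 1) scale, of every tested gene of each list, with the list median as a black line. The 10 factors have a median of -0.08, the HNF4-dependent list -0.80, the jejunal list -0.87 and the upper villus list -0.99, and genes can stand in more than one list.

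The summed TPM of enterocyte, Paneth, stem and enteroendocrine cell markers did not overlap between the groups, while the sums of the other cell types did. Each sum is weighted towards its most abundant genes. Gene by gene, the groups did not overlap in 6 of 14 enterocyte, 5 of 10 Paneth, 3 of 8 stem and 5 of 8 enteroendocrine markers. The share over all tested genes was 21.0%. Fabp1, Apoa4 and other enterocyte markers also stand in the HNF4 list, so these are not separate sets of values. The 14 enterocyte markers summed to 40994, 14053 and 17449 TPM in WT and 13733, 7571 and 7084 TPM in Mtg16-/-, all 14 lay below 0, and their median was -1.12, or -0.71 without WT replicate 1. The sum was lower in each Mtg16-/- library, but WT replicate 1 was far above the other WT libraries. The 10 Paneth cell markers all lay above 0 (median 0.94, or 0.67 with 8 above 0 without WT replicate 1, summed TPM 9770 to 22416 in WT and 27148 to 34384 in Mtg16-/-), as did the 8 stem cell markers (median 0.39, or 0.16 without WT replicate 1, 900 to 1542 and 1631 to 2135) and the 8 enteroendocrine markers (median 0.56, or 0.61 without WT replicate 1, 241 to 299 and 395 to 426). Goblet cell markers had 2 above 0 and 6 below, with a median of -0.42, which was -0.31 without WT replicate 1 and ran from -0.60 without Mtg16-/- replicate 1 to -0.11 without Mtg16-/- replicate 3. B and plasma cell markers had a median of -0.01 over 7 tested, which ran from -0.51 without Mtg16-/- replicate 1 to 0.42 without WT replicate 2 and was 0.020 without WT replicate 1. Macrophage markers had -0.10 over 8 tested, running from -0.21 without WT replicate 1 to 0.15 without WT replicate 2. Stromal markers had 0.16 over the 4 that were tested of 13, running from 0.046 without WT replicate 3 to 0.25 without WT replicate 1, with a summed TPM of 13.3 to 22.7. None of these markers was called. In crypts as a bulk sample, fewer cells of a type and less RNA per cell cannot be told apart, and the part of these markers' cells in the values of Gata4, Cdx2 or any other factor was not tested. Across the same libraries, 7 of the 10 factor genes had a residual SD under the median of all tested genes, 0.21 on the log2 scale, while Hnf4g, Maf and Prdm1 were above it, at percentiles 78.2, 94.2 and 91.8.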

How the data were processed

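RNA was sequenced from crypts of 3 WT and 3 Mtg16-/- mice. Total RNA (200 ng) was depleted of ribosomal RNA (KAPA RNA HyperPrep with RiboErase) and amplified by 14 PCR cycles. The submitters' processing notes name cutadapt 1.9.1, STAR 2.5.2a, RSEM 1.3.0, DESeq2 1.12.3 and the build mm10. The authors deposited RSEM TPM values per gene symbol, with 2 decimals, and no counts or depths were used here. TPM shares one total, so a large change in a few abundant genes shifts the values of the others.

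Values were transformed as log2(TPM + 1). The 12268 of 24736 genes that reached 1 TPM on average were tested with limma 3.58.1 (lmFit and eBayes with intensity trend, R 4.3.3), without covariates, with Benjamini-Hochberg adjustment over all of them. Single values were compared with two-sided exact permutation tests (scipy 1.17.1). The calculation was tested on simulated data. The 10 genes, the related lists and the markers were chosen with earlier results of these data known, and counts and medians of lists are descriptions. Of each list the 2 genes with the smallest p and the best known member were eligible to be named, where a result turned on them, and Enpp3 and the other factors without overlap, apart from Pdx1 and Foxa1, were named after their values were seen. Some members of the lists are counted but not reported here by name. Gene positions and promoter windows came from RefSeq GRCm38.p6, the same assembly as mm10.

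Alternatives were array weights, robust moderation, a fit with no trend, quantile normalization or median-ratio rescaling, a minimum of 5 TPM or no filter, a pseudocount of 0.1, a threshold of 0.05, a replicate block and the omission of each library. The counts without overlap and the marker medians and single list genes with each library left out were added after seeing the data.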

Additional observations from a re-analysis of the deposited data

How the results depend on the processing

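The number of genes called among all tested was 4 and changed with most settings. It was 0 with no filter, median-ratio rescaling, no intensity trend or an adjusted p under 0.05, 1 with quantile normalization, 15 at a mean TPM of at least 5, 20 with robust moderation and 855 with array weights. With a library left out it ran from 0 to 40, at 40 without WT replicate 1, 9 without WT replicate 3, and 1, 2 and 0 without Mtg16-/- replicates 1, 2 and 3. The cause was not tested. Of the 10 factor genes, 2 were called with array weights, Cdx2 (0.35, adjusted p = 0.0965) and Gata4 (-0.47, adjusted p = 0.0691). Cdx2 stayed above 0 and Gata4 below 0 in all 15 alternatives, at 0.34 to 0.56 and -0.51 to -0.34, and their limma adjusted p ran from 0.0829 to 0.590 and from 0.0691 to 0.590. Klf5 and Elf3 also stayed above 0 and Hnf4g below 0 in all 15, and Prdm1 below 0 in the 14 that gave it a value, since a mean TPM of at least 5 removed it. Values near 0 changed sign: with array weights Cdx1 was -0.061, Gata6 0.0063 and Maf 0.10, and with quantile normalization Hnf4a was 0.0073. With each library left out, Cdx1 ran from -0.12 to 0.16, Maf from -0.53 to 0.062, and the balance of Hnf4a to Hnf4g from -0.039 to 0.37, each turning without WT replicate 1. The median of all tested genes lay between -0.06 and 0.02 in these settings. Without Mtg16-/- replicate 1, 5 of the 10 genes had groups that did not overlap, Hnf4g and Prdm1 in addition, against 38.7% of all tested genes.

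Both genotypes use replicate numbers 1 to 3, but no source says that equal numbers mark a shared litter, batch or day. Deviations from the group means correlated across genes with r = 0.429, 0.0753 and 0.237 for the 3 numbers, so not every pair was over 0.1. These values cannot decide whether mice of equal number shared a litter, batch or day. As a hint from the data, 5 of the 6 libraries correlated best with the other library of their own number. With the replicate number as a block, limma called 1201 of all 12268 tested genes. Among the 10 factor genes it called 2, Cdx2 (0.45, adjusted p = 0.0829) and Gata4 (-0.42, adjusted p = 0.0727). The block also called 16 of 24 HNF4-dependent, 9 of 13 jejunal, 11 of 14 upper villus, 7 of 19 CDX-dependent, 3 of 3 PRDM1-repressed and 8 of 30 other factor genes, 13 of 14 enterocyte, 5 of 10 Paneth, 4 of 8 stem and 4 of 8 enteroendocrine markers, and 0 to 3 genes in each other list, where the fit without it called 0. These lists share genes, so a called gene can be counted in several of them. The depth is unknown, so how far it limits a low gene such as Prdm1 could not be measured.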
